A study of Sus scrofa with 18 samples.

Results

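The genes described here are 10 that encode neutrophil chemoattractants, cytokines and receptors of the same circuit, and enzymes of prostaglandin synthesis. They were taken by symbol from the pig count table, and all 10 were found among its 27339 genes. CXCL8, CXCL2, CCL20, CSF3 and IL6 are secreted ligands, CXCR2 and CSF3R are receptors, and PTGS2, PTGS1 and PTGES are enzymes. The genes were named for this function, not for how they were expressed.

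Neutrophils leave the blood along gradients of the ELR-type CXC chemokines, of which CXCL8 (interleukin 8) and CXCL2 are examples, and sense them through CXCR2. Granulocyte colony-stimulating factor, the product of CSF3, drives their production and survival through CSF3R. Prostaglandin E2 is made in sequence by a cyclooxygenase, either the constitutive PTGS1 (COX-1) or the inducible PTGS2 (COX-2), and by the microsomal synthase PTGES, and in skin and mucosa it is best known as a mediator of inflammation, pain and vasodilation.

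The libraries were made from tumours of a double knock-in (DIK) pig and from normal wild-type (WT) pig tissue. The DIK line carries a Tet-on system, which doxycycline switches on, together with parts of the phiC31 integrase system. Both genotypes received doxycycline: 3 DIK founders from an age of 7 months, and WT animals of matched age, with tissue collected 8 months on. The 9 DIK libraries are tumour pieces of 1 founder, 3 each with the labels nose, mouth and scrotum, and the 9 WT libraries are normal tissue, also 3 for each label. The tumours thus come from a single animal, and how many WT animals were sampled is not stated in the labels. The p-values below therefore reflect the spread among these pieces, some of which may be technical.

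Library totals ran from 2024959 to 4146150 counts in DIK and from 418665 (WT nose replicate 1) to 5041470 in WT. Values are given as CPM, counts scaled to a common TMM-adjusted library total, which are not corrected for gene length and so are compared between libraries and not between genes. The floor of 3 counts was worth 0.483 to 1.88 CPM in 17 libraries and 5.76 CPM in WT nose replicate 1, where 1 count alone gives 1.92 CPM. Posterior HOX genes, which mark the hind part of the body, summed to 15.4 ± 4.07 CPM in DIK and 56.0 ± 13.8 CPM in WT under the mouth label, but to 2.02 ± 1.52 CPM in DIK and 3.14 ± 0.97 CPM in WT under the scrotum label (SD, n = 3 each). That order goes against the site names, so mouth and scrotum are used below only as labels. The basal keratin KRT5 was at 20589 to 60693 CPM in the DIK libraries, against 41.1 to 12047 CPM in the WT libraries, of which WT scrotum replicate 2 was the highest. Skeletal muscle genes went the other way, with 6 of 6 listed genes called lower in DIK at each label and a summed level of 2.53 to 920 CPM in the DIK libraries, against 1103 to 222264 CPM in the WT libraries. Smooth muscle genes were lower for 5 of 5 at each label (42.8 to 337 CPM in DIK, against 1918 to 73501 CPM in WT), and fibroblast genes for 5 of 6. Of all tested genes, 20.1%, 24.3% and 24% were called lower at nose, mouth and scrotum. Gland genes summed to 18.9 to 40.1 CPM in DIK nose, against 51546 to 89342 CPM in WT nose. The part of these differences in epithelial, muscle, fibroblast and gland RNA in the results below was not tested. In bulk tissue, fewer cells of a type and less RNA per cell cannot be told apart.

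A gene was called when its edgeR quasi-likelihood p, adjusted by the Benjamini-Hochberg method over the 12895 genes that passed a filter on low counts, was under 0.05. Of the 10 genes, 7 passed the filter, and CSF3, IL6 and CCL20 did not. At the nose label, 7 of the 7 tested genes were higher in DIK, where 42.1% of all tested genes were called and 21.9% were called higher. At the mouth label, 4 of 7 were higher in DIK, where 46.9% of all genes were called and 22.7% higher. At the scrotum label, 7 of 7 were higher in DIK, where 43.5% of all genes were called and 19.4% higher. No gene of the set was called lower in DIK at any label, where 20.1%, 24.3% and 24% of all genes were called lower at nose, mouth and scrotum. Over the 7 tested genes the median log2 difference, DIK minus WT, was 3.54 at nose, 1.07 at mouth and 3.33 at scrotum, against 0.03, -0.04 and -0.09 over all tested genes. CXCL8, CXCL2, CSF3R and PTGS2 reached at most 2.1 CPM in any WT library, and CXCR2 reached 4.48 CPM in 1 WT library and at most 1.76 CPM in the others, so these 5 of the 7 genes passed the filter through the tumour libraries. The counts and medians above are descriptions of genes that were in part selected by the group where they are high. CXCL8, CXCR2, PTGS2 and PTGS1 were called higher at all 3 labels, and the first 3 of these passed the filter through the tumour libraries. The share of all tested genes called higher at all 3 labels is not given here, so this is a description only.

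**Figure D1:**
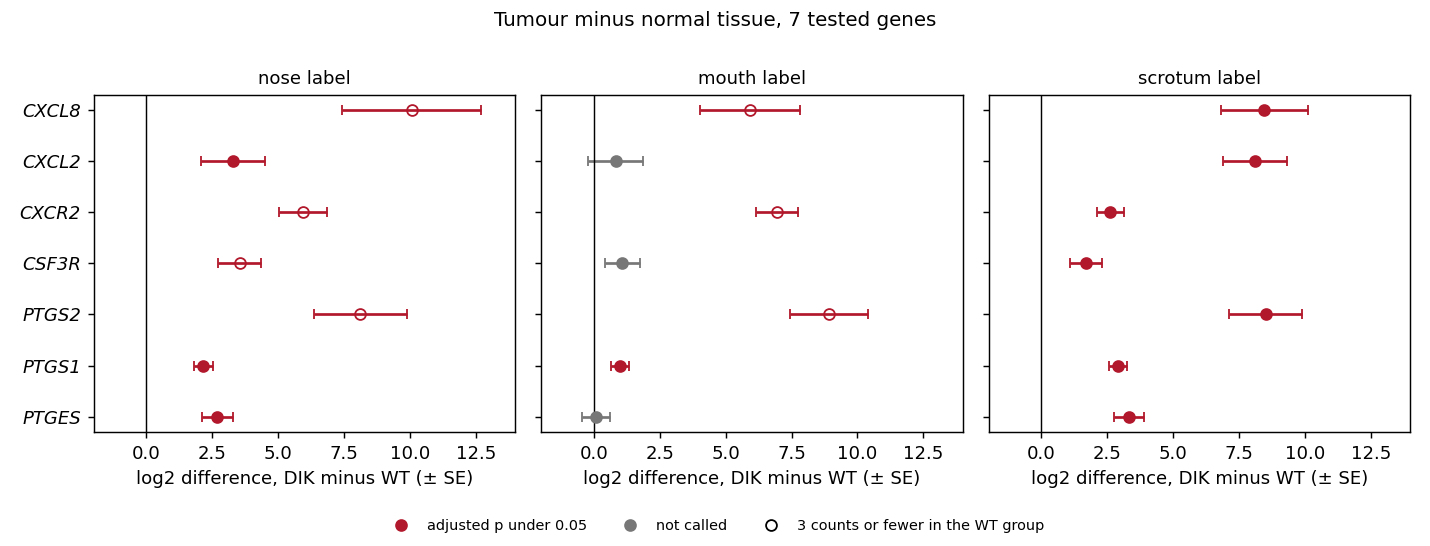
Log2 difference (DIK minus WT, horizontal axis) of the 7 tested genes at the nose, mouth and scrotum labels, with bars of 1 SE; red points have an edgeR adjusted p under 0.05, grey points do not, and open points rest on 3 or fewer WT counts, where the fitted size depends on the prior count. CXCL2, CSF3R and PTGES are grey at the mouth label, and every other point is red.

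CXCL8, the main neutrophil attractant of this family, was close to absent from normal tissue and present in every tumour library. In the nose tumours it measured 6.07, 100.7 and 3.55 CPM (replicates 1 to 3), against 0 counts in each of the 3 WT nose libraries. The 412 tumour counts made it at least 94.8-fold higher in DIK, taking 3 counts over the WT group as the bound, and at least 12.9-fold higher without DIK nose replicate 2, which held 374 of those counts. Every DIK nose library was above every WT nose library, and the edgeR adjusted p was 0.010; it was 0.247 when the nose libraries were fitted alone.

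Under the scrotum label CXCL8 was highest, at 343, 317 and 141 CPM in the tumours and 1.26, 0.41 and 0.75 CPM in WT tissue. The log2 difference was 8.45 ± 1.65 (SE, n = 3 each; edgeR adjusted p = 0.00162). These 3 tumour libraries lay above all other libraries of the series.

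The mouth tumours measured 6.33, 1.21 and 22.4 CPM of CXCL8, against 0, 0 and 0.52 CPM in WT mouth, and overlapped the nose tumours. The 109 DIK counts against 2 WT counts gave a ratio of 77.9, with an exact 95% counting interval of 21.1 to 651 that covers counting error only. All 3 DIK libraries were above all 3 WT libraries, with an edgeR adjusted p of 0.0233. This call rested on several single libraries: the adjusted p became 0.0987 without DIK mouth replicate 3 (log2 difference 4.48), 0.0789 without WT mouth replicate 1 (5.30) and 0.0750 without WT mouth replicate 2 (5.36).

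CXCL2 is a second CXCR2 ligand, known from macrophages and epithelium. It was high in the scrotum tumours and, apart from DIK nose replicate 2 (25.3 CPM), low elsewhere. Scrotum tumours measured 116, 153 and 46.9 CPM, against 0, 0.41 and 0.50 CPM in WT scrotum, without overlap. The log2 difference was 8.11 ± 1.22 (edgeR adjusted p = 0.000119). At the mouth label the groups overlapped, with 3.16, 0.49 and 5.33 CPM in DIK and 1.61, 1.74 and 1.57 CPM in WT. The log2 difference there, 0.83 ± 1.05, was smaller than its error (edgeR adjusted p = 0.545).

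In the nose tumours CXCL2 measured 1.70, 25.3 and 2.73 CPM, against 1.92, 0 and 1.5 CPM in WT nose. The groups overlapped only through WT nose replicate 1, where 1.92 CPM is a single count, and DIK nose replicate 2 alone was clearly above the normal libraries. The log2 difference was 3.28 ± 1.21 (edgeR adjusted p = 0.0411). Without DIK nose replicate 2 it was 1.14, with an adjusted p of 0.389. The adjusted p was 0.0565, 0.143 and 0.0888 without WT nose replicate 1, 2 or 3 (log2 differences 3.41, 2.63 and 4.78). It also passed 0.05 on leaving out a library of another label, at 0.0510 without DIK mouth replicate 1, 0.0501 without DIK scrotum replicate 1, 0.0546, 0.0518 and 0.0522 without WT mouth replicates 1, 2 and 3, and 0.0572 without WT scrotum replicate 2. Fitted on the nose libraries alone, the adjusted p was 0.177. The CXCL2 call at the nose label therefore sits at the threshold.

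The pig genome carries further chemokine genes beside these. In the RefSeq gene order 5 genes lie between CXCL8 and CXCL2, of which 4 are in the table, and near-identical copies in such a cluster could have split or shared reads. The first of them, AMCF-II, is the pig ELR chemokine that RefSeq lists with the synonym CXCL6. It measured 218, 600 and 62.5 CPM in scrotum tumours and 0, 0.20 and 0 CPM in WT scrotum, a single WT count (ratio 3619, exact 95% counting interval 649 to 142982; edgeR adjusted p = 0.000259). In nose tumours AMCF-II measured 3.64, 35.0 and 3.00 CPM, against 0, 0 and 0.85 CPM in WT nose (log2 difference 4.76 ± 1.54, edgeR adjusted p = 0.0269), and without DIK nose replicate 2 the difference was 2.71 with an adjusted p of 0.124. That call was also lost without WT nose replicate 2 or 3 or WT scrotum replicate 2 (adjusted p = 0.0953, 0.0805 and 0.0626). In mouth tumours it stayed at 0.63, 0.73 and 2.67 CPM, against 0 counts in WT mouth, at least 7.15-fold higher but not called (edgeR adjusted p = 0.103).

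Summed over CXCL8, CXCL2 and AMCF-II, the 9 tumour libraries spanned a wide range. The sum was 11.4, 161 and 9.28 CPM in the nose tumours, 10.1, 2.43 and 30.4 CPM in the mouth tumours, and 677, 1070 and 250.0 CPM in the scrotum tumours. It was at most 2.35 CPM in any WT library, so the lowest tumour library, DIK mouth replicate 2, was only just above normal tissue.

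**Figure D2:**
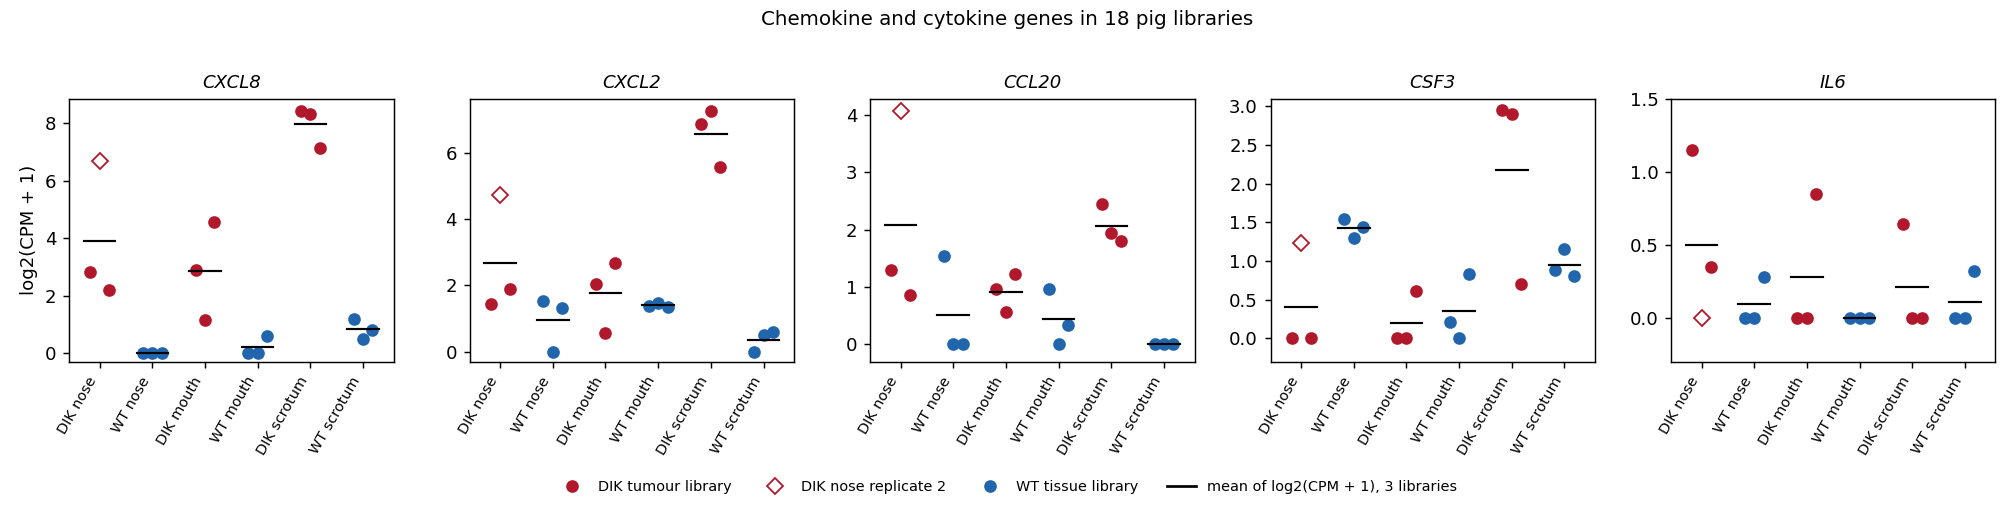
Log2(CPM + 1) of the 5 ligand genes in each of the 18 libraries, by group, with DIK red, WT blue, DIK nose replicate 2 as an open diamond and bars at the mean of 3 libraries. CXCL8 and CXCL2 are highest in the 3 scrotum tumours, and in the nose tumours the diamond lies far above the other 2 points for CXCL8, CXCL2 and CCL20.

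CCL20, CSF3 and IL6 were too low for the main test. CCL20 attracts CCR6-bearing lymphocytes and dendritic cells. It measured 4.47, 2.86 and 2.5 CPM in scrotum tumours and had 0 counts in all 3 WT scrotum libraries, at least 13.2-fold higher in DIK. In nose tumours it measured 1.46, 15.9 and 0.82 CPM, against 1.92, 0 and 0 CPM in WT nose, where 1.92 CPM is a single count. The 68 DIK counts against 1 WT count gave a ratio of 47.0 (exact 95% counting interval 8.15 to 1882), and without DIK nose replicate 2 the ratio was 9.18 (1.27 to 402) from 9 counts. In the mouth groups CCL20 overlapped, at 0.95, 0.49 and 1.33 CPM in DIK and 0.97, 0 and 0.26 CPM in WT. With no filter on low counts, the edgeR adjusted p for CCL20 was 0.0277 at nose, 0.635 at mouth and 0.0178 at scrotum.

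CSF3 was the gene of the set whose groups stood in the opposite order at the nose label. Nose tumours had 0, 1.35 and 0 CPM and WT nose 1.92, 1.46 and 1.71 CPM, with every DIK library below every WT library, from 5 and 13 counts in all. With no filter the log2 difference was -1.84 with an edgeR adjusted p of 0.233. In the scrotum tumours CSF3 measured 6.71, 6.44 and 0.63 CPM, against 0.84, 1.22 and 0.75 CPM in WT scrotum, so that 2 tumour libraries were high and the other, a single count, was under the floor of its library and could not be told from the WT values. Without the filter that difference was 2.27 (edgeR adjusted p = 0.0465). The mouth values were 0, 0 and 0.53 CPM in DIK and 0.16, 0 and 0.79 CPM in WT.

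IL6, the acute-phase cytokine, was barely detected. Its 13 counts over the whole series fell in 6 of 18 libraries, and the highest value was 1.21 CPM, in DIK nose replicate 1. DIK nose replicate 2, high for CXCL8, CXCL2 and CCL20, had 0 IL6 counts, which allows up to 0.808 CPM. A difference in IL6 between tumour and normal tissue was not detectable at this depth.

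The receptor CXCR2 was at a similar level in all tumours and near 0 in normal nose and mouth tissue. Nose tumours measured 9.47, 13.2 and 7.10 CPM, against 0, 0.37 and 0 CPM in WT nose. These are 114 counts against 1, a ratio of 78.7 (exact 95% counting interval 13.9 to 3137; edgeR adjusted p = 5.53e-05). DIK nose replicate 2 was the highest of its group but within 1.59 times the mean of replicates 1 and 3.

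In mouth tumours CXCR2 measured 16.8, 12.6 and 6.66 CPM, against 0, 0.17 and 0 CPM in WT mouth. The 130 counts against 1 gave a ratio of 186 (32.8 to 7395; edgeR adjusted p = 2.75e-06). Scrotum tumours measured 17.0, 20.4 and 9.38 CPM, close to the mouth tumours, but WT scrotum was higher than the other normal tissues at 0.84, 4.48 and 1.76 CPM. The highest normal value, 4.48 CPM, was in WT scrotum replicate 2, which also had the highest normal KRT5. The log2 difference at scrotum was 2.61 ± 0.51 (edgeR adjusted p = 0.000472) and 3.49 without that library. The 9 tumour libraries held 6.66 to 20.4 CPM, and no DIK library overlapped a WT library of the series.

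CSF3R, the receptor for CSF3, was lower and differed less. Nose tumours measured 2.91, 7.00 and 4.64 CPM, against 0, 0.73 and 0.21 CPM in WT nose, 55 counts against 3 (ratio 12.7, exact 95% counting interval 4.11 to 63.3; edgeR adjusted p = 0.00191). Scrotum tumours measured 5.03, 6.44 and 4.38 CPM, against 2.1, 1.63 and 1.25 CPM in WT scrotum. Neither pair of groups overlapped. The scrotum log2 difference was 1.70 ± 0.60 (edgeR adjusted p = 0.0281); the adjusted p was 0.0558 without DIK scrotum replicate 1, 0.0922 without DIK scrotum replicate 2 and 0.0850 without WT scrotum replicate 3 (log2 differences 1.74, 1.53 and 1.53). In the mouth groups CSF3R overlapped, at 0.63, 0.97 and 3.47 CPM in DIK and 0.64, 0.35 and 1.57 CPM in WT (log2 difference 1.07 ± 0.67, edgeR adjusted p = 0.197).

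PTGS2, the inducible cyclooxygenase, was nearly silent in normal tissue and expressed in all tumours. Mouth tumours measured 104, 57.8 and 159 CPM, against 0.48, 0 and 0 CPM in WT mouth, 1163 counts against 3 (ratio 554, exact 95% counting interval 189 to 2691; edgeR adjusted p = 0.000289). Scrotum tumours measured 381, 254 and 196 CPM, against 0.84, 0 and 1.5 CPM in WT scrotum (log2 difference 8.5 ± 1.37, edgeR adjusted p = 0.000245). All tumour libraries of both labels were far above all normal libraries.

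Nose tumours were uneven for PTGS2, with 6.55, 118 and 6.55 CPM, against 0, 0 and 0.21 CPM in WT nose. Replicates 1 and 3 were equal to 3 digits, and replicate 2 was 18.1 times their mean. The edgeR adjusted p was 0.00242, and 0.0812 when the nose libraries were fitted alone. Without replicate 2 the 51 tumour counts against 1 gave a ratio of 52.0 (exact 95% counting interval 8.93 to 2095), and the fitted log2 difference was 5.38 in place of 8.12. PTGS2 thus separated tumour from normal libraries without overlap at all 3 labels.

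PTGS1, the constitutive cyclooxygenase, was present in every library and higher in the tumours at each label. Nose tumours measured 30.1, 24.2 and 37.4 CPM, against 3.84, 8.40 and 6.41 CPM in WT nose (log2 difference 2.17 ± 0.37, edgeR adjusted p = 0.000169). Scrotum tumours measured 86.1, 58.3 and 114 CPM, against 6.29, 15.1 and 12.5 CPM in WT scrotum (2.89 ± 0.34, adjusted p = 3.19e-06). DIK nose replicate 2 had the lowest PTGS1 of its group, the reverse of its place for PTGS2.

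Mouth tumours measured 15.5, 27.0 and 20.3 CPM of PTGS1, against 9.17, 9.59 and 12.8 CPM in WT mouth. The groups did not overlap, and the log2 difference was 1.0 ± 0.33 (edgeR adjusted p = 0.0193). With library size alone as the scaling it was 0.76 with an adjusted p of 0.0931, and the adjusted p was 0.102 without DIK mouth replicate 2, 0.0593 without WT mouth replicate 1 and 0.0643 without WT mouth replicate 2 (log2 differences 0.77, 0.90 and 0.94).

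PTGES, the terminal synthase of prostaglandin E2, was higher in tumours at 2 labels. Nose tumours measured 38.1, 74.9 and 54.3 CPM, against 7.68, 13.9 and 4.27 CPM in WT nose (log2 difference 2.69 ± 0.60, edgeR adjusted p = 0.00187). Scrotum tumours measured 117, 175 and 92.5 CPM, against 6.71, 4.69 and 26.6 CPM in WT scrotum (3.33 ± 0.57, adjusted p = 0.000191). Neither pair overlapped. Mouth tumours measured 25.0, 46.2 and 41.6 CPM, against 29.8, 48.6 and 28.1 CPM in WT mouth (0.08 ± 0.52, adjusted p = 0.912). WT mouth held more PTGES than either other normal tissue, with every WT mouth library above every other WT library.

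**Figure D3:**
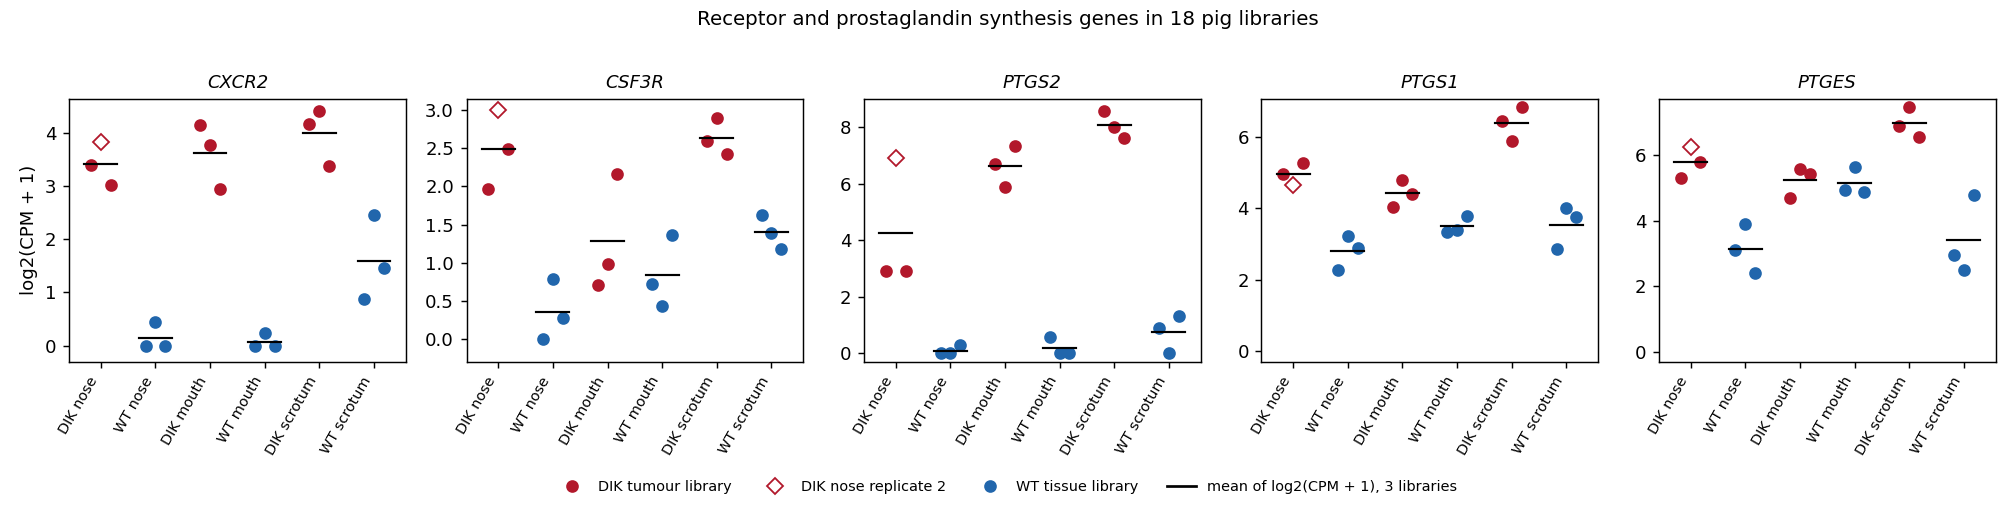
Log2(CPM + 1) of the 2 receptor genes and 3 prostaglandin synthesis genes in each of the 18 libraries, by group, with DIK red, WT blue, DIK nose replicate 2 as an open diamond and bars at the mean of 3 libraries. CXCR2 and PTGS2 separate every tumour library from every normal library of the same label, whereas PTGES overlaps at the mouth label.

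The balance between the 2 cyclooxygenases differed among tumours as well as from normal tissue. PTGS2 gave 0.218, 4.89 and 0.175 counts per PTGS1 count in nose tumours, 6.69, 2.14 and 7.86 in mouth tumours, and 4.43, 4.36 and 1.73 in scrotum tumours, against 0 to 0.133 in the WT libraries. The ratio is not corrected for gene length and is read between libraries only. Nose replicates 1 and 3 were above the normal range but below all 7 other tumour libraries. The top of the normal range rests on 2 PTGS2 counts over 15 PTGS1 counts, in WT scrotum replicate 1. Against it, nose replicates 1 and 3 had 27 over 124 and 24 over 137 counts, and this small gap was not tested against counting error.

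In the order of group means, scrotum tumours came first for CXCL8, CXCL2, CXCR2, CSF3R, CSF3, PTGS2, PTGS1 and PTGES. They did not overlap the next group for CXCL8, CXCL2, PTGS2, PTGS1 and PTGES, and they did for CXCR2, CSF3R and CSF3. Nose and mouth tumours overlapped each other for CXCL8, CXCL2, PTGS2, PTGS1 and PTGES. For PTGS2 and PTGS1 that overlap came from DIK nose replicate 2 alone. Nose replicates 1 and 3 were both at 6.55 CPM of PTGS2, against 57.8 to 159 CPM in mouth tumours. For PTGS1 they were at 30.1 and 37.4 CPM, against 15.5 to 27.0 CPM in mouth tumours. These orders compare tumour pieces of 1 animal and carry no test here. How many of all tested genes show the same orders is not given, so whether they are unusual cannot be judged.

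Whether the tumour difference itself varied between labels was tested with interaction terms over the same fit. For scrotum minus mouth, 4 of 7 genes were called, where 13.1% of all tested genes were called, 5.01% as larger and 8.1% as smaller at scrotum. The difference was larger at scrotum for CXCL2 (7.28 ± 1.68 on the log2 scale, edgeR adjusted p = 0.0115), PTGS1 (1.89 ± 0.47, adjusted p = 0.0116) and PTGES (3.24 ± 0.76, adjusted p = 0.00927). It was smaller at scrotum for CXCR2 (-4.33 ± 1.06, adjusted p = 0.0110). That value rests on a WT mouth group with 1 CXCR2 count and on WT scrotum replicate 2: on leaving out that library and the shallow WT nose replicate 1 (an alternative added after seeing the data) it was -3.40 with an adjusted p of 0.0558, and limma-voom gave -2.44 with 0.136.

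For mouth minus nose, 1 of 7 genes was called, where 8.6% of all genes were, 3.99% as larger and 4.61% as smaller at mouth. It was PTGES (-2.61 ± 0.78, edgeR adjusted p = 0.0477). The call was lost, with an adjusted p of 0.0537 to 0.126, on leaving out any DIK library, WT nose replicate 1 or 3, or WT mouth replicate 2 or 3. For scrotum minus nose, 0 of 7 were called at an adjusted p under 0.05, where 7.65% of all genes were, 3.19% as larger and 4.46% as smaller at scrotum. At an unadjusted edgeR p under 0.05, 2 of the 7 passed, CXCL2 (4.82) and CXCR2 (-3.33), and CXCL2 alone was called by DESeq2 and by limma-voom. The CXCL2 interaction had an adjusted p of 0.166 in edgeR, 0.0203 in DESeq2, 0.0463 in limma-voom, and 0.00900 in edgeR without DIK nose replicate 2. CXCL8 and PTGS2 were called in none of these 3 tests. For mouth minus nose, scrotum minus nose and scrotum minus mouth, CXCL8 gave -4.14 ± 5.45, -1.62 ± 3.53 and 2.53 ± 4.23. PTGS2 gave 0.80 ± 4.43, 0.38 ± 12.9 and -0.42 ± 1.68. Each error was larger than its estimate, but these errors are derived from F, so this restates that F was under 1. They are no separate measure of spread. With 0 to 8 counts of either gene per WT group, these tests cannot decide whether either tumour difference varied between labels.

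DIK nose replicate 2 stood apart from its 2 partner libraries for part of the gene set. Relative to the mean CPM of replicates 1 and 3 it was 20.9-fold for CXCL8, 18.1-fold for PTGS2, 14-fold for CCL20 and 11.4-fold for CXCL2. The receptors and PTGES differed far less, at 1.85-fold for CSF3R, 1.62-fold for PTGES and 1.59-fold for CXCR2, and PTGS1 was lower at 0.718-fold. Over all 12895 tested genes, 5.48% were at least 1 log2 unit higher in replicate 2 and 6.59% at least 1 lower, with a median of 0. The genes of the set above 10-fold were thus 3 ligands and the inducible cyclooxygenase, and a single library allows no test of this contrast.

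Other listed genes moved in the same library. S100A8, S100A9 and S100A12, calcium-binding alarmins of neutrophils and stressed keratinocytes, measured 12615, 8325 and 20267 CPM in replicate 2, against 1405, 1046 and 3441 CPM in replicate 1 and 1107, 1027 and 2640.2 CPM in replicate 3. FOS measured 58.7 CPM in replicate 2, against 14.8 and 12 CPM in the other two. The macrophage gene C1QA went the other way, with 15.6 CPM in replicate 2 and 40.1 and 30.6 CPM in the others. By list, replicate 2 was at least 2-fold above the mean of the others for 6 of 7 neutrophil list genes with a ratio, 4 of 11 immediate early genes and 1 of 9 macrophage genes. It was at least 2-fold below the mean of the others for 5 of 6 fibroblast genes, 4 of 5 skeletal muscle genes, 3 of 4 smooth muscle genes, 4 of 6 T cell genes and 4 of 9 macrophage genes with a ratio. The skeletal muscle actin ACTA1 measured 4.58 CPM in replicate 2, against 683 and 887 CPM in the others, and JCHAIN, the joining chain of secreted antibodies, 34.7 CPM, against 380 and 306 CPM. Their part in the values of this library was not tested.

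**Figure D4:**
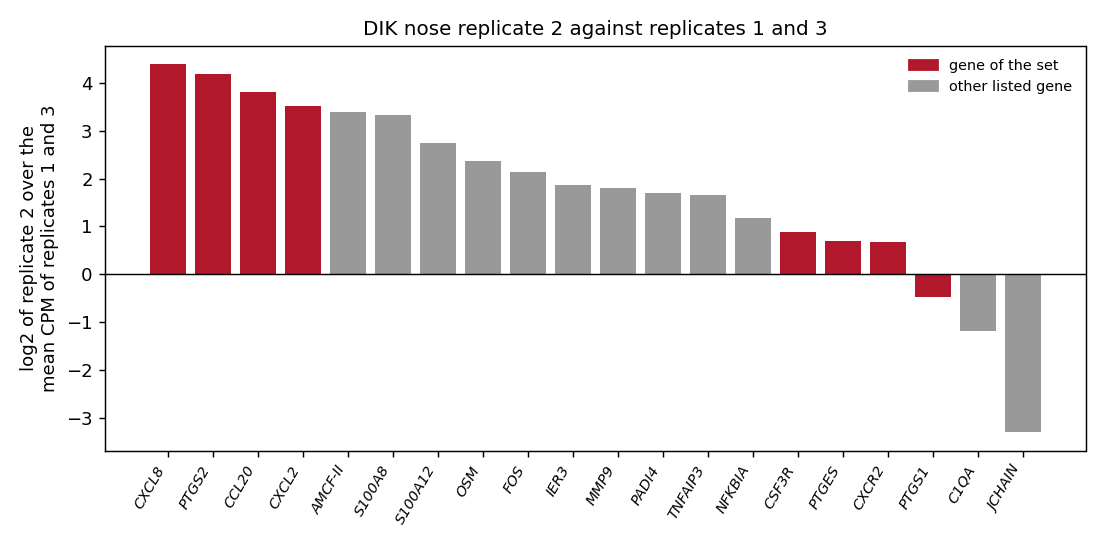
Log2 ratio of CPM in DIK nose replicate 2 over the mean of replicates 1 and 3, for 8 genes of the set (red) and 12 genes from other lists (grey), chosen after their values were seen and sorted by size. CXCL8, PTGS2, CCL20 and CXCL2 stand above 3 log2 units, CSF3R, PTGES and CXCR2 below 1, and PTGS1 below 0.

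Among the other genes of prostanoid metabolism, more were called lower than higher at each label. Of 20 listed genes 13 were tested. At nose 1 was higher and 4 lower in DIK, at mouth 2 higher and 5 lower, and at scrotum 2 higher and 4 lower, with median log2 differences of 0.34, -1.33 and -0.91, against 0.03, -0.04 and -0.09 over all genes. Among all tested genes 21.9%, 22.7% and 19.4% were called higher and 20.1%, 24.3% and 24% lower at nose, mouth and scrotum. Lower calls thus also outnumbered higher calls over all genes at mouth and scrotum. PTGDS, the prostaglandin D2 synthase, was lower at every label. It measured 7.04, 0 and 9.01 CPM in nose tumours, against 169, 262 and 166 CPM in WT nose (edgeR adjusted p = 0.000161). In mouth tumours it was at 0, 0 and 0.53 CPM, against 389, 484 and 394 CPM in WT mouth, and in scrotum tumours at 1.12, 1.43 and 0 CPM, against 356, 225 and 211 CPM in WT scrotum (adjusted p = 4.04e-06 and 1.35e-05). The prostaglandin F2 alpha receptor PTGFR differed by -3.69, -2.34 and -6.21 on the log2 scale at nose, mouth and scrotum, and the prostaglandin E2 receptor PTGER3, at 0 to 0.49 CPM in the tumours, against 1.83 to 5.77 CPM in WT, was also called lower at each.

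Of the genes that clear prostaglandins, HPGD, which encodes the enzyme that inactivates prostaglandin E2, measured 64.1, 72.7 and 61.2 CPM in nose tumours, against 1.92, 1.10 and 6.84 CPM in WT nose (log2 difference 4.04 ± 0.74, edgeR adjusted p = 0.000527). At mouth its groups overlapped and it was not called (0.73, adjusted p = 0.353). Scrotum tumours measured 63.2, 27.5 and 86.3 CPM of HPGD, against 7.13, 42.6 and 9.03 CPM in WT scrotum, where WT scrotum replicate 2 alone made the overlap. The difference there, 1.55, had an edgeR adjusted p of 0.0508, and without that library it was 2.83 with an adjusted p of 0.000208. It was also called by DESeq2 (1.60, adjusted p = 0.0290), by limma-voom (2.36, adjusted p = 0.000785) and with median-of-ratios scaling (1.57, adjusted p = 0.0437). The prostaglandin transporter SLCO2A1 measured 12.7, 14.3 and 7.20 CPM in mouth tumours, against 1.29, 0.70 and 0.26 CPM in WT mouth (3.77 ± 0.48, edgeR adjusted p = 7.23e-06). It was also called at scrotum (1.17 ± 0.44, edgeR adjusted p = 0.0365), a call lost without DIK scrotum replicate 1 or 2 or WT scrotum replicate 1 or 3 (adjusted p = 0.104, 0.0801, 0.0978 and 0.117), and not at nose (0.34, adjusted p = 0.560). The receptor PTGER4, which also binds prostaglandin E2, was called at no label (adjusted p = 0.330, 0.0798 and 0.0709 at nose, mouth and scrotum).

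In the interleukin 6 and colony-stimulating factor family 11 of 16 listed genes were tested, and 3 were higher at each label, with 3 lower at nose and 5 lower at both mouth and scrotum. Over all tested genes 21.9%, 22.7% and 19.4% were called higher and 20.1%, 24.3% and 24% lower at nose, mouth and scrotum, so the counts of higher genes are near the background. Their median log2 differences were 0.10, -0.72 and -0.43. SOCS3, the feedback inhibitor that STAT3 signalling induces, measured 31.6, 26.8 and 23.1 CPM in scrotum tumours, against 0, 0 and 2.01 CPM in WT scrotum (log2 difference 5.20 ± 0.77, edgeR adjusted p = 3.69e-05). Without WT scrotum replicate 3, the only WT scrotum library with SOCS3 counts, the fitted difference was 9.63. It was also higher at nose (2.80, adjusted p = 0.0146) and mouth (2.01, adjusted p = 0.0261). The nose call of SOCS3 was lost without DIK nose replicate 2 or WT nose replicate 2 or 3 (adjusted p = 0.0531, 0.0666 and 0.0889), and the mouth call without DIK mouth replicate 3 or WT mouth replicate 3 (adjusted p = 0.132 and 0.0679). OSM, an interleukin 6 family ligand made by myeloid cells, measured 14.3, 13.6 and 8.75 CPM in scrotum tumours, against 0, 0.61 and 0.25 CPM in WT scrotum (5.03 ± 0.83, adjusted p = 9.74e-05). In DIK nose replicate 2 OSM was at 5.38 CPM, against 0.73 and 1.37 CPM in replicates 1 and 3. The interleukin 6 receptor IL6R was lower in nose and scrotum tumours (-1.60 and -2.33, adjusted p = 0.000563 and 1.36e-05) and not called at mouth (0.47, adjusted p = 0.216).

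Immediate early genes, transcribed within minutes of a growth or stress signal, were called higher for 8 of 11 tested at nose, 7 at mouth and 8 at scrotum, with 1 lower, at mouth. Their medians were 2.35, 2.25 and 2.92 on the log2 scale. Of all tested genes, 21.9%, 22.7% and 19.4% were called higher at nose, mouth and scrotum, and 24.3% lower at mouth. FOS was highest in scrotum tumours, with 549, 354 and 206 CPM in scrotum tumours, against 0.84, 2.24 and 1.5 CPM in WT scrotum (log2 difference 7.81 ± 0.73, edgeR adjusted p = 3.99e-07). Its nose and mouth differences were 2.29 (adjusted p = 0.00724) and 4.23 (adjusted p = 0.000107), and the nose call of FOS was lost without DIK nose replicate 2 (1.21, adjusted p = 0.0695) or WT nose replicate 3 (1.99, adjusted p = 0.0548). JUNB differed by 3.82, 4.02 and 4.04 at nose, mouth and scrotum, and by 5.26 at scrotum without WT scrotum replicate 2.

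Markers of other cells moved with the gene set in part. Of 19 neutrophil list genes, 14 were in the table and 7 were tested, with 6 higher and 1 lower at nose, 5 higher and 1 lower at mouth, and 6 higher and 1 lower at scrotum. The summed level of the 14 ran from 4813 to 41343 CPM in nose tumours, 10868 to 18556 CPM in mouth tumours and 17313 to 31302 CPM in scrotum tumours, against 9.3 to 877 CPM over the WT libraries, and in the tumours it was mostly S100A8, S100A9 and S100A12, which keratinocytes also make. The WT nose libraries gave the highest WT sums, mostly from PGLYRP1, a peptidoglycan recognition protein of neutrophil granules, with 0, 0.54 and 0.27 CPM in nose tumours, against 566, 839 and 726 CPM in WT nose. PGLYRP1 was the gene called lower at each label. For comparison, 21.9%, 22.7% and 19.4% of all tested genes were called higher and 20.1%, 24.3% and 24% lower at nose, mouth and scrotum. MMP9 reached at most 0.52 CPM and PADI4 at most 1.02 CPM in any WT library, so both passed the filter through the tumour libraries. The counts of higher neutrophil list genes are thus in part set by the filter. Of the 6 defining markers listed apart from the gene set, 4 were in the table. MPO had 2 counts over the 9 DIK libraries and 3 over the WT libraries, ELANE 3 and 2, and MMP8 9 and 22, so these granule genes were at or near 0 in both genotypes. PADI4, a citrullinating enzyme of mature neutrophils, had 743 counts in DIK and 9 in WT, with 80.2, 105 and 45.6 CPM in scrotum tumours, 1.94, 8.89 and 3.55 CPM in nose tumours and 1.58, 5.59 and 1.87 CPM in mouth tumours, against at most 1.02 CPM in WT. How much of the CXCR2 and CSF3R signal came from neutrophils was not tested.

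Macrophage genes were not higher as a group. Of 8 tested, 0 were called by edgeR at nose (1 at an unadjusted p under 0.05), 6 were lower at mouth, and 1 was higher and 6 lower at scrotum. The exception was CD68, a lysosomal protein of phagocytes, at 75.7, 154 and 45 CPM in scrotum tumours, against 5.45, 6.32 and 17.1 CPM in WT scrotum. The shares of all tested genes were 42.1% called at nose, 24.3% lower at mouth, and 19.4% higher and 24% lower at scrotum. ACKR1, the venular receptor that binds CXCL8 without signalling, was lower in tumours at each label, with 25.2, 9.96 and 28.1 CPM in nose tumours, against 59.5, 61.3 and 64.1 CPM in WT nose (edgeR adjusted p = 0.0306). That call of ACKR1 was lost without DIK nose replicate 2 (-1.21, adjusted p = 0.116) or WT nose replicate 1, 2 or 3 (adjusted p = 0.0509, 0.0648 and 0.0752). Keratinocyte genes were 5 higher of 5 tested at nose and mouth and 4 of 5 at scrotum. The matching shares of all tested genes were 21.9%, 22.7% and 19.4% at nose, mouth and scrotum.

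**Figure D5:**
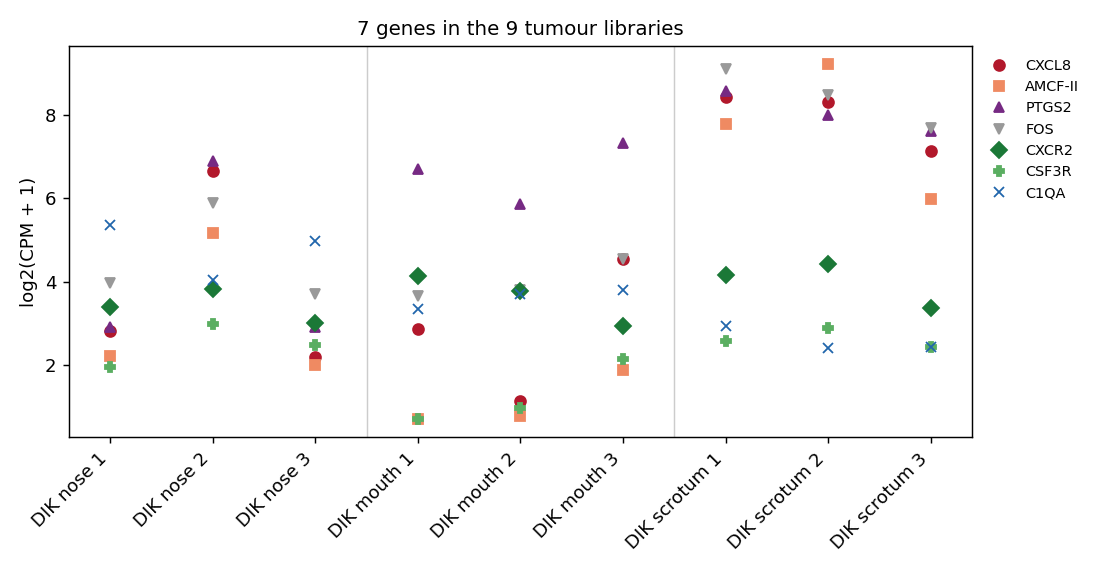
Log2(CPM + 1) of CXCL8, AMCF-II, PTGS2, FOS, CXCR2, CSF3R and C1QA in each of the 9 tumour libraries, grouped by label. CXCL8, AMCF-II, PTGS2 and FOS peak in nose replicate 2 among the nose tumours and are high in all 3 scrotum tumours, while CXCR2 stays between 6.66 and 20.4 CPM throughout.

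The genes whose pattern over the 18 libraries was most like that of PTGS2 or CXCL8 were found by the root-mean-square difference between centred log2 CPM, over 11619 genes with a RefSeq symbol. Among the 5 nearest to PTGS2 were AREG (0.887), GPRC5A (0.963), MMP9 (1.01) and UPP1 (1.14), where PTGS2 itself spanned 9.44 log2 units. Nearest to CXCL8, which spanned 9.29 log2 units, were AMCF-II (1.04), PTHLH (1.11), AREG (1.16), SERPINE2 (1.24) and GPRC5A (1.30). AREG encodes the EGF receptor ligand amphiregulin. It measured 7.04, 82.1 and 8.74 CPM in nose tumours, 22.5, 23.8 and 40.2 CPM in mouth tumours and 197, 191 and 96.9 CPM in scrotum tumours, against at most 0.61 CPM in WT. These likenesses describe libraries that share genotype, tissue and depth, and most of the pattern is the contrast of tumour with normal tissue.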

How the data were processed

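Messenger RNA of 18 pig libraries was measured, 3 in each of 6 groups. Per the submitters' processing notes, reads were handled with fastp, HISAT2 2.1.0 and HTSeq 0.11.2. Genome build, annotation, strandedness and handling of multiply mapping reads are not stated there, so reads of overlapping, antisense or near-identical genes may be mixed. The authors deposited raw read counts per gene and library. Columns were matched to samples by name, and 10 of the 10 gene symbols matched RefSeq (Sscrofa11.1), used for names and gene order only.

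After TMM scaling, the counts were fitted with edgeR 4.0.16 under R 4.3.3 (robust quasi-likelihood, 6 group means, 12 residual degrees of freedom, filter of minimum count 10 and minimum total 15, which left 12895 genes). SE is the absolute log2 difference over the square root of F. CPM uses TMM-scaled totals. Folds against 0 counts are bounds against 3 counts over the group; groups with 1 to 3 counts get an exact 95% ratio interval. Neither goes beyond counting error, as PCR copies were not marked by molecular identifiers.

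The gene set, the lists of related pathways and cell types and the rule for named genes (all 10 genes, up to 6 genes per list by adjusted p, the defining neutrophil markers and the 5 genes most like PTGS2 and CXCL8) were chosen with earlier results of these data known. PTGER4 and IL17A were named after their values were seen. One gene that the rule names is not reported here. The steps were checked on simulated counts. No 2 libraries of a group agreed within sampling noise (chi-square per degree of freedom at least 6.08). Alternatives were 3 scalings (library size alone, upper-quartile, median-of-ratios), 2 filters, DESeq2 1.42.0, limma-voom 3.58.1, only the groups compared, a replicate block, stricter thresholds, and leaving out each library, in which case the gene filter was kept.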

Additional observations from a re-analysis of the deposited data

Results flagged for a closer look

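The tumour difference of 4 genes of the set differed between the scrotum and mouth labels by the interaction test of edgeR. For CXCL2 it was larger at scrotum by 7.28 log2 units (adjusted p = 0.0115), and leaving out single libraries gave 6.74 to 8.05, with an adjusted p of at most 0.0327. PTGS1 differed by 1.89 (adjusted p = 0.0116; 1.63 to 2.14) and PTGES by 3.24 (adjusted p = 0.00927; 2.82 to 4.43), and no single library ended either call. CXCR2 went the other way, by -4.33 (adjusted p = 0.0110; -5.79 to -3.44), where the tumours of both labels overlapped and the WT groups held 31 counts at scrotum and 1 at mouth. WT scrotum replicate 2 gave the highest normal CXCR2 and KRT5, and its part in this value was not tested beyond leaving it out (-3.44, adjusted p = 0.0430).

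PTGES also differed between mouth and nose, by -2.61 (edgeR adjusted p = 0.0477). Its range without single libraries was -3.35 to -2.17, with an adjusted p of up to 0.126, and the call was lost without 13 of the 18 libraries. Mouth and scrotum are labels that the posterior HOX genes do not bear out, so the site behind each of these 5 differences is uncertain. Groups of 3 libraries were too small for an outlier test, so DIK nose replicate 2 could not be tested as one.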

How the results depend on the processing

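No called difference of the 7 tested genes changed sign under any alternative run. Counts over all genes moved more. With limma-voom the interactions called 3337 (mouth minus nose), 1901 (scrotum minus nose) and 2537 genes (scrotum minus mouth), against 1109, 986 and 1690. At an adjusted p under 0.01 they were 390, 277 and 733, the nose comparison called 3617 genes in place of 5426, and 2 genes of the set were called at mouth. Fitted on the nose libraries alone, 4 of the set were called there, without CXCL8, CXCL2 and PTGS2. The matching counts over all genes, at mouth under 0.01 and in the nose fit alone, are not given here. Whether these losses are particular to the set thus cannot be judged. Leaving out single libraries gave 671 to 1757 genes for mouth minus nose and 448 to 1303 for scrotum minus nose. At mouth it gave 2 to 4 of the set, where 5048 to 6545 of all genes were called. Over all tests of the set, leaving out single libraries ended 32 calls and added 1, and the other settings ended 22 and added 2. LCN2 at mouth was -3.06, with a range of -3.67 to 0.66 on leaving out single libraries and its sign turned without WT mouth replicate 1; the cause was not tested.

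With library size alone, 36.1% of the mouth calls were higher in DIK in place of 48.2%, 32.9% in place of 46.4% for mouth minus nose, and 48.5% in place of 38.2% for scrotum minus mouth; the median of all genes moved to -0.29 at mouth and -0.21 at scrotum. Same-numbered DIK and WT libraries of a label did not deviate together (correlations -0.048 to 0.089, 2 of 9 closest to their own number). The block is thus no pairing of DIK with WT. Whether WT libraries of the same number but different labels came from the same animal was not checked. With the replicate block, 5374, 6037 and 5561 genes were called at nose, mouth and scrotum, and CXCL2 at nose (2.98, adjusted p = 0.0826) lost its call. DESeq2 gave no adjusted p for AREG and UPP1. Depth limits IL6, CSF3 and CCL20 most.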

Other observations

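Genes of the interleukin 17 axis, which induces CXCL8, CXCL2, CCL20 and CSF3 in epithelium, were tested for 8 of 12 listed: 2 were higher at nose, 1 higher and 1 lower at mouth, and 4 higher at scrotum, where 42.1%, 46.9% and 43.5% of all tested genes were called in either direction. IL17A had 0 counts in all 18 libraries. Its receptor chain IL17RA was higher in DIK at mouth (log2 difference 1.42, edgeR adjusted p = 0.000774) and scrotum (1.78, adjusted p = 0.000127), but not called at nose (0.59, adjusted p = 0.137). Feedback genes of NF-kB were 5 higher of 11 tested at nose, 3 at mouth and 6 at scrotum, with none lower. By direction, 21.9%, 22.7% and 19.4% of all tested genes were higher and 20.1%, 24.3% and 24% lower at nose, mouth and scrotum. These shares apply to the interleukin 17 counts too, and the NF-kB count at mouth is near its share. NFKBIA, which encodes the inhibitor of NF-kB, was higher by 1.37, 1.26 and 1.49 at nose, mouth and scrotum (adjusted p = 0.00457, 0.00658 and 0.00220). TNFAIP3, another inhibitor, measured 66.5, 72.2 and 28.8 CPM in scrotum tumours, against 4.62, 4.69 and 4.77 CPM in WT scrotum, and in mouth tumours 8.54, 7.29 and 14.9 CPM, against 7.56, 19.5 and 16.8 CPM in WT mouth (adjusted p = 4.78e-05 at scrotum and 0.421 at mouth).

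A protein-coding locus without a gene name, LOC100525396, lies between CXCL8 and CXCL2 in the RefSeq order and had more counts than either. It measured 1251, 1907 and 511 CPM in scrotum tumours, against 0.84, 0.82 and 0 CPM in WT scrotum (log2 difference 11.07 ± 1.60, edgeR adjusted p = 9.71e-05). In nose tumours it measured 10.7, 163 and 6.01 CPM, against 1.92, 0.37 and 0 CPM in WT nose, with replicate 2 again high. In mouth tumours it measured 3.48, 2.19 and 10.9 CPM, against 0.16, 0.35 and 0.26 CPM in WT mouth. It was named after its values were seen.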
